A study of Mus musculus with 6 samples.

Results

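Genes of actin turnover were compared between platelets of Beta3(R734C) homozygous knock-in mice (KI, 3 libraries), in which the cytoplasmic tail of integrin β3 carries an arginine-to-cysteine substitution, and platelets of wild-type mice (WT, 3 libraries). The 10 genes, chosen by symbol from 24346 in the deposited tables, were the cytoplasmic actins Actb and Actg1, the monomer binders Tmsb4x, Tmsb10, Pfn1, Cap1 and Twf2, and the severing or disassembly factors Cfl1, Dstn and Wdr1. All 10 were present and all 10 passed the filter on low values, a mean of at least 1 FPKM (fragments per kilobase of transcript, scaled to the size of the library) over the 6 libraries. Both groups were labelled as blood thrombocytes, and the only stated difference was the genotype. The labels used here name no strain, age, sex or number of animals, and no source says that libraries came from separate mice, so a p-value here covers the spread of these libraries, part of which may be technical. FPKM cannot show a missense change, so the genotype was taken from the labels. No label limits the knock-in to one cell type, and platelets have no nucleus, so most of their mRNA comes from megakaryocytes. The series title concerns large platelets in low number and the αIIbβ3 and RhoA pathway.

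Actin cycles between monomers and filaments. Thymosins β4 and β10 hold monomers in reserve, and profilin passes monomers to growing filament ends. Cofilin and its relative destrin sever and shorten old filaments, WDR1 speeds the disassembly of cofilin-bound filaments, and CAP1 and twinfilin take part in recycling the released monomers. Platelets fill with new filaments within moments of activation and are known for a large monomer pool bound to thymosin β4. In mice, partial loss of WDR1 causes large platelets in low number, and loss of destrin together with cofilin in megakaryocytes impairs platelet formation.

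The thymosin genes encode short, related messages and are shown because both were higher in the knock-in. Capitals mark the positions at which the 2 coding sequences differ (GENCODE M21 transcripts, GRCm38, start codon to stop codon, 135 bases each, 40 positions differing).
Tmsb4x: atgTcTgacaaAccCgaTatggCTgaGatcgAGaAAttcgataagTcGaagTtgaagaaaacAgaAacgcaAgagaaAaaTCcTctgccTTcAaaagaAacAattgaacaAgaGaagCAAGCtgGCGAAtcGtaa
Tmsb10: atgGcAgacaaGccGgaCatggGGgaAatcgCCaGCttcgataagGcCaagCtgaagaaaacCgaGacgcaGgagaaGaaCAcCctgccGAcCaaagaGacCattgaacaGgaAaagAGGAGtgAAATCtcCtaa
Their coding sequences were 70.4% identical and shared no identical run longer than 10 bases. The first 150 bases of the actin coding sequences are shown because the actins share long stretches, which makes the split of fragments between them less certain, and capitals again mark the 27 differing positions.
Actg1: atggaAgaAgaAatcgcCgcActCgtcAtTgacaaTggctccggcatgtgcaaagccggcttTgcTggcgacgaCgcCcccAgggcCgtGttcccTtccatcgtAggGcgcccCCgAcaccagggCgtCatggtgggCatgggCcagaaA
Actb: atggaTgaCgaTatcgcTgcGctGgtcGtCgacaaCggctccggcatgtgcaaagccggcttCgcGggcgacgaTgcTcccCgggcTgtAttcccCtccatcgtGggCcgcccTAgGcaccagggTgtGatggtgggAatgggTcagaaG
Over the whole 1128 coding bases the actins were 88.7% identical, with a longest identical run of 62 bases. Dstn and Cfl1 were 68.1% identical, with a longest run of 20 bases. The search for near-copies asked for at least 95% identity over at least 50% of the coding length. It found 5 annotated pseudogenes for Actg1, 5 pseudogenes and the gene Gm9844 for Tmsb10, 1 pseudogene for Cfl1 and no annotated locus for the other 7 genes. Levels of Actg1, Tmsb10 and Cfl1 are therefore less certain, since how the authors counted shared fragments is not given in the sources used here.

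On GRCm38, Actb lies on chromosome 5 at 142903115 to 142906754 and Wdr1 on chromosome 5 at 38526813 to 38563221, both on the minus strand. Actg1 is on chromosome 11 at 120345690 to 120348542 and Pfn1 on chromosome 11 at 70651850 to 70654644, both minus. Tmsb4x lies on chromosome X at 167207093 to 167209315, Tmsb10 on chromosome 6 at 72957347 to 72958748 and Cap1 on chromosome 4 at 122859047 to 122886056, all minus. On the plus strand are Twf2 (chromosome 9, 106203108 to 106215389), Cfl1 (chromosome 19, 5490455 to 5495201) and Dstn (chromosome 2, 143915320 to 143943324). Exons of Cap1 overlap Ppt1, those of Cfl1 overlap Snx32 and those of Wdr1 overlap Gm22249, each on the other strand, and Actg1 exons hold Gm23419 and Mir6935 on the same strand. The library kits do not mark strand, so fragments of overlapping exons cannot be told apart.

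The libraries held 8383 to 8998 genes above 0 FPKM in the knock-in and 8600 to 9006 in the wild type. Their depth relative to wild-type library 1, estimated from the most frequent ratio of low values, was 0.880 to 1.05 in the knock-in and 1 to 1.05 in the wild type. Total FPKM was 758381 to 856863 in the knock-in and 641278 to 708432 in the wild type. All 8 platelet markers were present, with a summed level of 44132 to 49830 FPKM in the knock-in and 44624 to 47639 in the wild type. Haemoglobin mRNA took 20.4% of the total in knock-in library 1 and 3.20% and 4.04% in the others, against 12.8% in wild-type library 1 and 7.2% and 5.71% in the others. Summed neutrophil markers (8 in the tables) reached 1.56 FPKM in the knock-in and 2.19 in the wild type, with Camp, Elane and Mpo listed at 0 in every library. Summed B cell markers (4) reached 0.693 FPKM in the knock-in and 0.185 in the wild type, with Ms4a1 at 0 throughout. Of 7 T and NK cell markers only Nkg7 averaged at least 1 FPKM, with Cd3d, Cd3e, Cd4 and Klrb1c at 0, and the sum was 4.95 to 8.83 FPKM in the knock-in and 2.67 to 4.42 in the wild type. Beyond the fits and shares below that leave out haemoglobin-rich libraries or erythroid genes, the part of haemoglobin mRNA in the results was not tested. That of Nkg7 was not tested. Of 6 monocyte and macrophage markers only Lyz2 averaged at least 1 FPKM (8019 over all libraries), while Csf1r, Cd68, Adgre1 and Ccr2 stayed under 1 and Ms4a7 at 0. In bulk samples, fewer cells of a type and less RNA per cell cannot be told apart.

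Of the 10 genes, Tmsb4x, Tmsb10 and Dstn rose in the knock-in and Wdr1 and Twf2 fell, while Actb, Actg1, Cfl1, Pfn1 and Cap1 did not pass the test. The test was limma on log2(FPKM + 1), with p-values adjusted by Benjamini-Hochberg over all 4859 genes tested and a threshold of 0.05. That made 5 of 10 genes called, where 8.36% of all tested genes were called (4.36% higher and 3.99% lower in the knock-in). Values did not overlap between the groups for 8 of 10 genes, 4 with all knock-in libraries above and 4 below, where 30.7% of all tested genes did not overlap (14.9% above and 15.8% below). The genes are abundant, and abundant genes pass more often. Among the 1257 genes with a mean at or above that of Twf2, the lowest of the 10, 22.8% were called and 50% did not overlap. The other members lay above that cut, so these shares do not match their levels. The members were also chosen with earlier results of these data known, so the counts are a description only. The median log2 fold change of the 10 genes was 0.06, beside -0.01 for all tested genes. At an unadjusted limma p of 0.05, 7 of the 10 passed, where 25.4% of all tested genes passed. No gene of the 10 reached the 2-fold limit named in the series' design text, which 3.11% of tested genes reached.

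Total FPKM differed between the groups, and the calls depended on scale. Scaling each library to the same total FPKM moved the median log2 fold change of all tested genes to -0.24. Calls over all genes were then 51 higher and 483 lower, against 212 higher and 194 lower with the deposited values, and 173 higher and 251 lower after rescaling to the total without erythroid, member and top genes. Of the 10 genes, 0 passed as higher and Wdr1, Twf2, Pfn1 and Cap1 passed as lower after scaling to the same total. After the rescaling without erythroid, member and top genes, Tmsb4x (adjusted p = 0.0128) and Tmsb10 (0.0479) passed as higher and Wdr1, Twf2 and Pfn1 as lower. Relative to the median shifted by scaling to the same total, the log2 fold changes were 0.67 for Tmsb4x, 0.74 for Tmsb10, 0.41 for Dstn, -0.68 for Wdr1 and -0.83 for Twf2. Wdr1 and Twf2 kept their call under each of the scalings tried, the other scalings being median-of-ratios factors and quantile normalization.

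**Figure D1:**
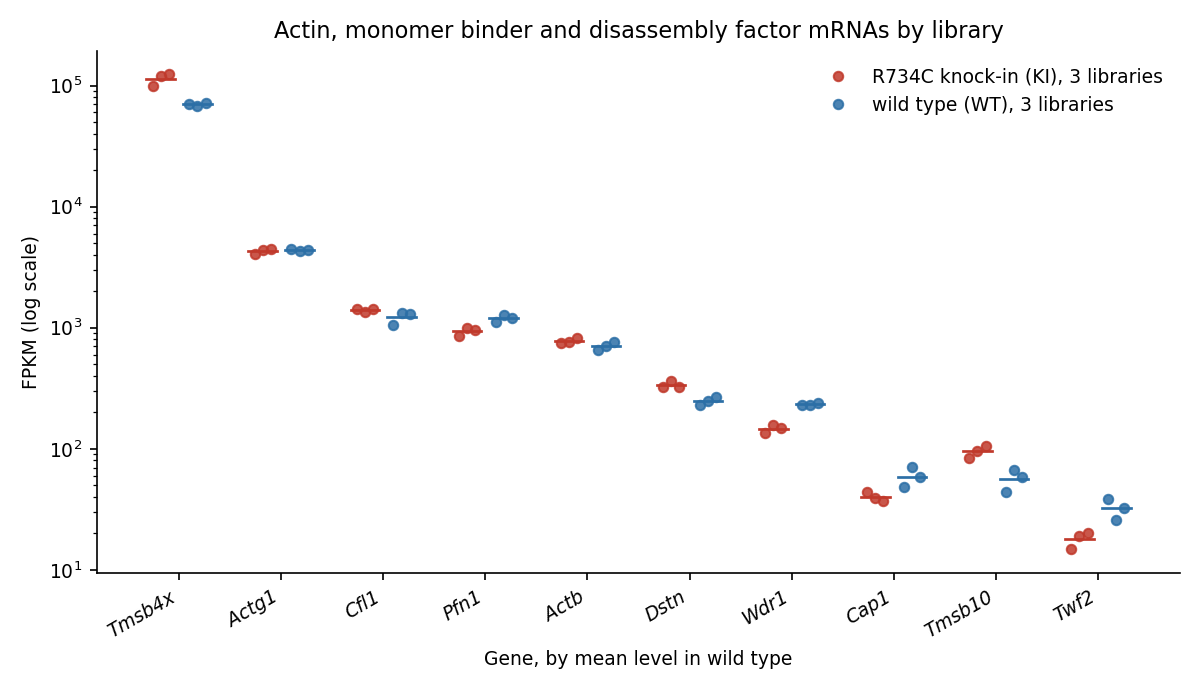
FPKM of each gene in each library on a log scale, with knock-in points left of wild-type points and a line at each group mean. Tmsb4x stands at 99031 to 123545 FPKM in the knock-in and 67313 to 72457 in the wild type, above the other 9 genes, which lie between 14.8 and 4492 FPKM.

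**Figure D2:**
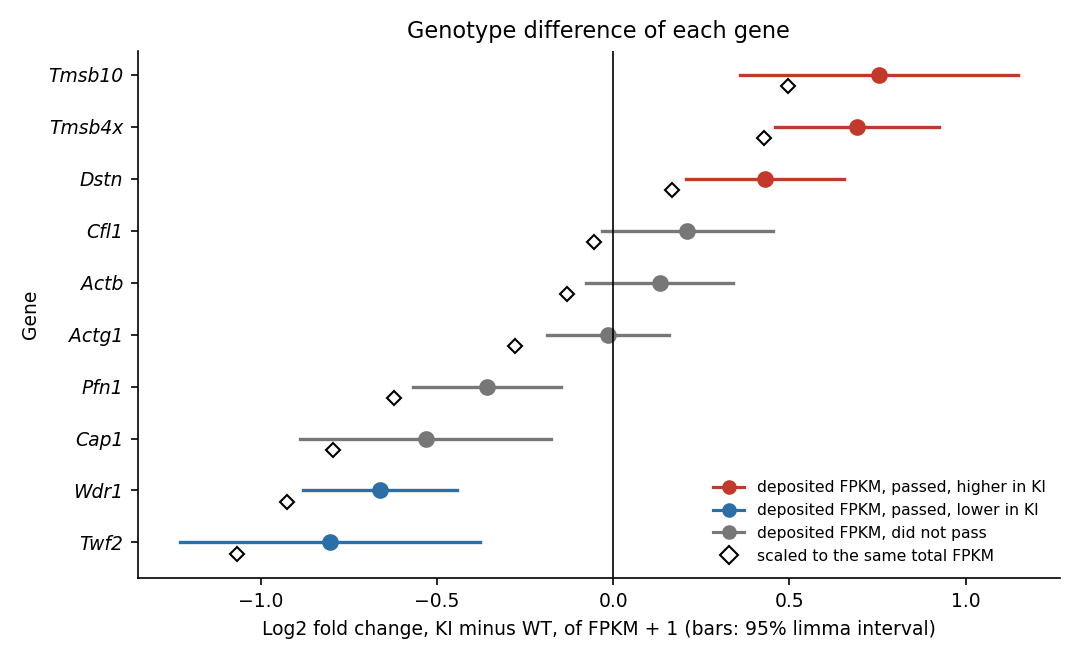
Log2 fold change (KI minus WT, FPKM + 1) of each gene with its 95% limma interval, coloured by whether it passed the adjusted threshold, and, as open diamonds, the value after scaling each library to the same total. Tmsb10 (0.75), Tmsb4x (0.69) and Dstn (0.43) lie above 0 and Wdr1 (-0.66) and Twf2 (-0.80) below it, and each diamond lies to the left of its point.

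The cytoplasmic actins, which build the filaments themselves, showed no difference that passed the test. Actg1, encoding γ-actin, measured 4079, 4371 and 4492 FPKM in the knock-in libraries, against 4439, 4277 and 4357 FPKM in the wild-type libraries. The groups overlapped. For Actg1 the log2 fold change was -0.02 (SE 0.08, 95% interval -0.19 to 0.16, limma adjusted p = 0.928), and the sign changed with several settings. Actb, encoding β-actin, measured 746, 763 and 820 FPKM in the knock-in, against 654, 707 and 767 FPKM in the wild type. Wild-type library 3 lay just above knock-in libraries 1 and 2, so the groups overlapped. Its log2 fold change was 0.13 (SE 0.09, 95% interval -0.08 to 0.34, limma adjusted p = 0.420), and it became -0.13 after scaling to the same total, or 0.11 relative to the shifted median. Summed over both genes, actin mRNA was 5090 ± 246 FPKM in the knock-in and 5067 ± 73.6 FPKM in the wild type (SD, n = 3 each), and Actb made up 15.3% ± 0.334 of that sum in the knock-in and 14% ± 1.07 in the wild type.

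Tmsb4x, for thymosin β4, was the most abundant of the 10 messages and rose in the knock-in. It measured 99031, 118984 and 123545 FPKM in the knock-in libraries, against 70765, 67313 and 72457 FPKM in the wild-type libraries. All knock-in values lay above all wild-type values, and knock-in library 1, the one richest in haemoglobin mRNA, was the lowest of its group. In log2 terms the fold change was 0.69, with an SE of 0.10 (limma, adjusted p = 0.00969), or 1.62-fold. Without both haemoglobin-rich libraries it was 0.80 (adjusted p = 0.000109). The Tmsb4x call was lost with no filter on low values (adjusted p = 0.0715), with a constant prior variance in place of a variance trend (0.0724), after scaling to the same total (log2 fold change 0.43, 0.146), and without knock-in library 2 (0.0588), knock-in library 3 (0.0580) or wild-type library 2 (0.0580). Quantile normalization turned it to -0.38 (0.448): Tmsb4x was the highest gene of 5 libraries and the second highest of knock-in library 1, behind Hba-a1, and that method gives the highest gene of each library the same value.

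Tmsb4x took 11.6%, 15.7% and 15.8% of all FPKM in the knock-in libraries, against 9.99%, 10.5% and 11.2% in the wild-type libraries. The other 9 genes together took 0.901%, 1.07% and 1.07% in the knock-in, against 1.11%, 1.28% and 1.29% in the wild type. Thus the share of Tmsb4x was larger and that of the other 9 smaller in every knock-in library than in any wild-type library (two-sided exact permutation p = 0.1 for each, the smallest that 3 against 3 allows). The 2 shares are not separate results, since both depend on a total that includes Tmsb4x and was higher in every knock-in library. A smaller share does not mean that the other 9 fell together. In deposited FPKM, not shares, Tmsb10, Cfl1 and Dstn lay higher, and Pfn1, Cap1, Twf2 and Wdr1 lower, in every knock-in library than in any wild-type library. Such a lack of overlap held for 30.7% of all tested genes. After scaling to the same total, as a share is, the log2 fold change stayed positive for Tmsb10 (0.50) and Dstn (0.17). It was then negative for Cfl1 (-0.05), Actb (-0.13) and Actg1 (-0.28), as for Pfn1, Cap1, Twf2 and Wdr1. All 10 together took 15.4% ± 2.53 in the knock-in and 11.8% ± 0.719 in the wild type (SD, n = 3 each, exact permutation p = 0.2), and the groups overlapped. With the erythroid genes left out of the total, the shares were 16.9% ± 1.02 in the knock-in and 12.9% ± 0.329 in the wild type (SD, n = 3 each, exact permutation p = 0.1) and did not overlap.

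Tmsb10, for thymosin β10, is the minor thymosin of these platelets and also rose. Its levels were 83.7, 95.7 and 106 FPKM in the knock-in, against 43.5, 67.1 and 58.9 FPKM in the wild type. The groups did not overlap, and library 1 was the lowest of each group. This gave a log2 fold change of 0.75 with an SE of 0.17 (limma, adjusted p = 0.0338). It did not pass with no filter (0.118), with a constant prior variance (0.0935), after scaling to the same total (log2 fold change 0.50, 0.162) or after removal of a length trend (0.43, 0.147). Leaving out knock-in library 2 (0.108) or 3 (0.127), or wild-type library 1 (0.0540), 2 (0.0586) or 3 (0.0899), also ended the call.

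Both thymosin messages are short, with annotated principal transcripts of 768 bases for Tmsb4x and 690 for Tmsb10. For the trend over all genes, length was that of the longest annotated transcript of each symbol, not the principal one. Over 4694 genes with such a length, longer transcripts tended to have lower log2 fold changes (Spearman's rho -0.188, across genes that share the same libraries). The 939 shortest, up to 1652 bases, had a median log2 fold change of 0.19 with 99 genes higher and 28 lower, and the 939 longest a median of -0.09 with 10 higher and 29 lower. After removal of that trend, Tmsb4x stood at 0.44 on the log2 scale (limma, adjusted p = 0.0141), Dstn at 0.43 (0.0289), Wdr1 at -0.59 (0.0129) and Twf2 at -0.85 (0.0320). Tmsb10 at 0.43 (0.147) no longer passed, and Pfn1 at -0.36 (0.0401), not called with the deposited values, passed as lower. The part of transcript length in the thymosin values was not otherwise tested.

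Pfn1, for profilin-1, which delivers monomers to filament ends and whose loss in mouse megakaryocytes gives small platelets, was 1.28-fold lower but just missed the threshold. It measured 859, 994 and 957 FPKM in the knock-in libraries, against 1121, 1274 and 1206 FPKM in the wild-type libraries. Every knock-in value lay below every wild-type value. On the log2 scale it was -0.36, with an SE of 0.09 (limma, adjusted p = 0.0502). It passed under 8 of 20 other settings, with adjusted p from 0.0120 to 0.0401, none of which left out a single library.

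Cap1, for the cyclase-associated protein that recycles monomers from cofilin-bound actin, measured 43.7, 39.5 and 36.9 FPKM in the knock-in and 48.6, 70.1 and 57.9 FPKM in the wild type. The groups did not overlap, but wild-type library 1 lay close to knock-in library 1. Its log2 fold change was -0.53 (SE 0.16, 95% interval -0.89 to -0.18; limma, adjusted p = 0.0725). The threshold was passed at a mean FPKM of at least 5 (0.0499), after scaling to the same total (0.0258), with sample weights (0.0316), without wild-type library 1 (0.0427) and without both haemoglobin-rich libraries (0.0127).

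Twf2, for twinfilin-2, a monomer binder that also caps filament ends, was the least abundant of the 10 and fell in the knock-in. Its levels were 14.8, 19.1 and 19.97 FPKM in the knock-in, against 38.2, 25.9 and 32.7 FPKM in the wild type. The groups did not overlap, and the wild-type spread was wide, with a coefficient of variation of 19.0%. It came to a log2 fold change of -0.80 with an SE of 0.19 (limma, adjusted p = 0.0349). It lost its call under 9 of 20 other settings, among them no filter (0.108), a constant prior variance (0.0813), leaving out knock-in library 2 (0.0908) or 3 (0.0831) or wild-type library 1 (0.0831), 2 (0.0586) or 3 (0.113), and leaving out both haemoglobin-rich libraries (log2 fold change -0.55, 0.0707). The related gene Twf1, for twinfilin-1, measured 86.0 ± 7.14 FPKM in the knock-in and 93.6 ± 2.81 FPKM in the wild type (SD, n = 3 each) with an adjusted p of 0.527 by limma.

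Among the factors that take filaments apart, Wdr1 and Dstn moved in opposite directions. Wdr1, the cofilin cofactor, measured 136, 156 and 149 FPKM in the knock-in libraries, against 229, 230 and 239 FPKM in the wild-type libraries. The groups were far apart, with a gap wider than the spread within either. Wdr1 thus had a log2 fold change of -0.66 with an SE of 0.10 (limma, adjusted p = 0.00924), and was 1.58-fold lower. Of the 10 genes it held its call under the most of the 20 other settings (17), losing it with a constant prior variance (0.0656) and on leaving out knock-in library 3 (0.0508) or wild-type library 2 (0.0521). Its value stayed between -0.93 and -0.59 under those settings.

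Dstn, for destrin (actin-depolymerizing factor), measured 325, 362 and 323 FPKM in the knock-in, against 232, 248 and 269 FPKM in the wild type. All knock-in values were higher. The resulting log2 fold change was 0.43 with an SE of 0.10 (limma, adjusted p = 0.0336). The call was lost under 11 of 20 other settings, with a log2 fold change of 0.17 (adjusted p = 0.496) after scaling to the same total and values from 0.35 to 0.49 under the others. Of the settings that left out a single library, the call was kept only without knock-in library 1 (0.0270); it was lost without knock-in library 2 (0.124) or 3 (0.0959) and without wild-type library 1 (0.0691), 2 (0.119) or 3 (0.0688).

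Cfl1, for cofilin-1, was the more abundant of these relatives, at 1435, 1347 and 1439 FPKM in the knock-in and 1046, 1319 and 1302 FPKM in the wild type. All knock-in values were higher, by a narrow margin over wild-type libraries 2 and 3. Its log2 fold change was 0.21 (SE 0.11, 95% interval -0.03 to 0.45; limma, adjusted p = 0.261) and became -0.05 after scaling to the same total, or 0.19 relative to the shifted median.

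By mean FPKM, the order in the knock-in was Tmsb4x, Actg1, Cfl1, Pfn1, Actb, Dstn, Wdr1, Tmsb10, Cap1 and Twf2, and no neighbours overlapped in their ranges over 3 libraries. In the wild type Cfl1 (1222 ± 153 FPKM) and Pfn1 (1200 ± 76.7 FPKM) overlapped, as did Dstn (250 ± 18.8) and Wdr1 (233 ± 5.59), and Cap1 (58.9 ± 10.8) and Tmsb10 (56.5 ± 12.0; SD, n = 3 each). In knock-in platelets the ranges of those pairs stood apart: Cfl1 was 1.5 times Pfn1, Dstn 2.29 times Wdr1 and Tmsb10 2.37 times Cap1 by group mean. Library by library, Dstn was above Wdr1 in all 3 wild-type libraries too. Each pair joins a gene that lay higher with one that lay lower in the knock-in, so the contrast restates those differences. Library 1 was the lowest of its group for 7 genes in the knock-in and for 7 genes in the wild type, and it was the library richest in haemoglobin mRNA in both.

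Ratios between the genes within a library do not change when a whole library is rescaled. They can still carry the trend with transcript length, which was not removed from them. Its removal took the log2 fold change of Tmsb4x from 0.69 to 0.44 and left that of Actb at 0.13. Thymosin β4 mRNA per actin mRNA (Tmsb4x over the sum of Actb and Actg1) was 20.5, 23.2 and 23.3 in the knock-in libraries, against 13.9, 13.5 and 14.1 in the wild-type libraries. The ratio was higher in each knock-in library than in any wild-type one (two-sided exact permutation p = 0.1, the smallest possible). Wdr1 over Cfl1 was 0.0945, 0.116 and 0.103 in the knock-in, against 0.219, 0.174 and 0.184 in the wild type. That is a log2 difference of -0.88 with an SD of 0.15 in the knock-in and 0.17 in the wild type on the log2 scale. Pfn1 over Actb was 1.15, 1.3 and 1.17 in the knock-in, against 1.71, 1.80 and 1.57 in the wild type, again with no overlap and a log2 difference of -0.49.

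Tmsb4x over Actb had a log2 difference of 0.56, and Dstn over Cfl1 one of 0.22, and in both the knock-in values lay above the wild-type values. For Dstn over Cfl1 the margin was narrow, at 0.225 to 0.269 in the knock-in and 0.188 to 0.221 in the wild type. The other ratios overlapped. Tmsb4x over Tmsb10 averaged 1199 ± 39.4 in the knock-in and 1286 ± 315 in the wild type (SD, n = 3 each), a log2 difference of -0.07 (exact permutation p = 0.8), a difference smaller than the wild-type spread. Actb over Actg1 (log2 difference 0.15), Cfl1 over Actb (0.08), Cap1 over Pfn1 (-0.19) and Twf2 over Pfn1 (-0.48) were also within overlapping ranges. Over the 9 ratios of single genes the lowest adjusted p was 0.225, and 3 against 3 cannot reach 0.05.

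**Figure D3:**
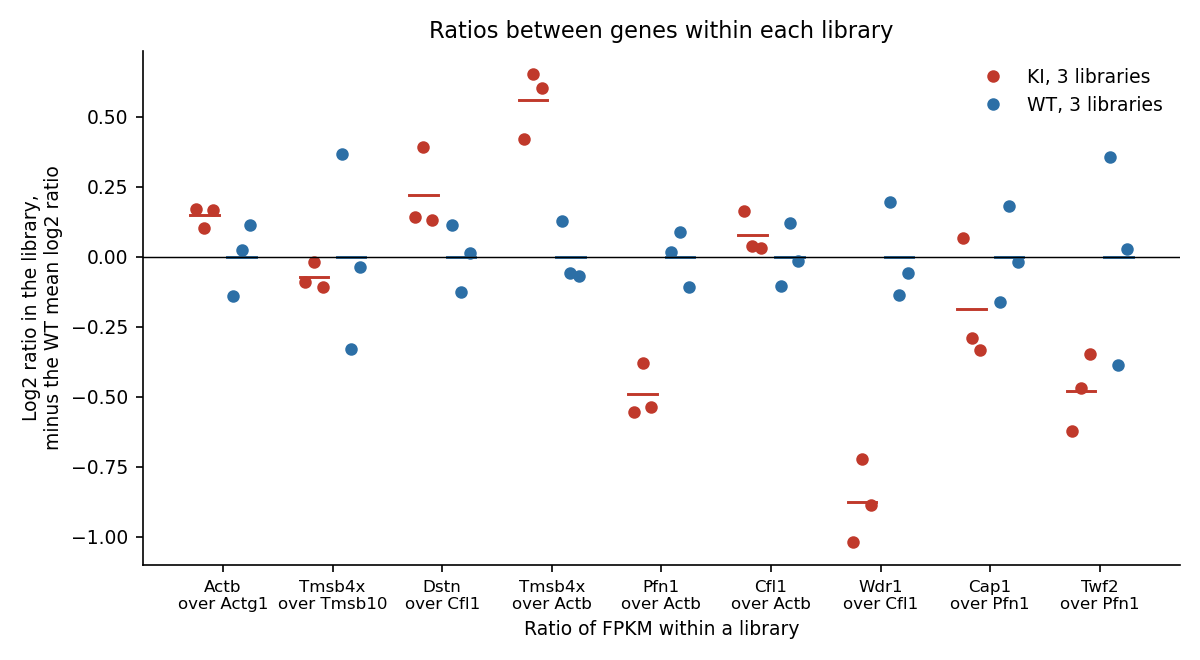
Log2 ratio of FPKM between gene pairs in each library, minus the wild-type mean of that ratio, with knock-in points left of wild-type points and lines at group means. Wdr1 over Cfl1 (-0.88) and Pfn1 over Actb (-0.49) lie below the wild type and Tmsb4x over Actb (0.56) above it without overlap, whereas Tmsb4x over Tmsb10 (-0.07) overlaps.

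Transcription of actin genes is controlled by serum response factor (SRF), which binds the CArG box and is switched by cofactors that sense free actin monomers. RefSeq promoter windows (GRCm38.p6, 250 bases before to 50 after the start) matched 8 of the 10 genes, in 10 windows. Actb and Twf2 had no window and were not searched. The Wdr1 window lay wholly inside the gene as annotated in GENCODE, so the sequence before the GENCODE start of Wdr1 was not searched. The CArG box and TATAAA were searched on both strands. A CArG box was present in the window of Actg1, from 90 to 81 bases before the RefSeq start. None of the windows of the other 7 genes searched held one, where 1.63% of all 32851 windows do. TATAAA was in none of the 10 windows, against 13.6% of all windows. The Actg1 and Tmsb4x sequences are shown as the promoter with the box and that of the most abundant message, with the CArG box in capitals. Each runs from the window's 5′ end to the first start annotated in either RefSeq or GENCODE. For both that is the GENCODE start, upstream of the RefSeq start, so the box lies nearer to the end of the printed Actg1 sequence.
Actg1 (chr11:120348543-120348745, minus strand): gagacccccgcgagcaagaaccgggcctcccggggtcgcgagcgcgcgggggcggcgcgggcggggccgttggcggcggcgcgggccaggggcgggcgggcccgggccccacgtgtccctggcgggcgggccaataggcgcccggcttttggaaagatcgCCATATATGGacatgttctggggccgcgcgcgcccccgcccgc
Tmsb4x (chrX:167209316-167209468, minus strand): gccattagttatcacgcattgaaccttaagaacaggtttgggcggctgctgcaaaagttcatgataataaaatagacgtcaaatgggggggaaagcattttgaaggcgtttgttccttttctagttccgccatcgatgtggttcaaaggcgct
A match describes letters in the window only. Srf measured 2.39 ± 0.592 FPKM in the knock-in and 1.68 ± 0.981 FPKM in the wild type, and Mkl1, for an actin-sensing cofactor, 0.791 ± 0.262 FPKM in the knock-in and 1.59 ± 0.352 FPKM in the wild type (SD, n = 3 each). Neither passed (limma adjusted p = 0.502 for Srf and 0.246 for Mkl1).

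Among other genes of actin turnover, 1 gene passed the test. Of 70 gene symbols listed in 8 groups, 67 were present and 33 were tested. Of these 33, 0 rose and 1 fell, or 3.03%, against 8.36% of all tested genes, and their median log2 fold change was 0.06. Most of the 33 had a mean below that of Twf2 (25.1 FPKM). Abundant genes pass more often, so this share cannot be compared with that of the 10 members. The gene that fell was Coro1b, 1 of 8 tested among the coronin and other ADF-homology genes; coronin-1B helps to dismantle branched filament networks. It measured 57.7, 54.3 and 54.7 FPKM in the knock-in libraries, against 86.5, 96.4 and 98.9 FPKM in the wild-type libraries. The groups were well separated, and the log2 fold change was -0.74 with an SE of 0.11 (limma, adjusted p = 0.00940). Its call was lost with a constant prior variance (0.0623) and on leaving out knock-in library 3 (0.0538) or wild-type library 2 (0.0548). Coro1c, for a related coronin, measured 47.0 ± 8.99 FPKM in the knock-in and 61.4 ± 8.33 FPKM in the wild type (SD, n = 3 each) with an adjusted p of 0.191 by limma. Values did not overlap for 4 of the 33 genes with the knock-in above (Tcp1, Cct2, Pfdn6, Capg) and 5 below (Coro1b, Gsn, Ssh1, Mkl1, Actg2). Over all tested genes those shares were 14.9% and 15.8%.

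In the gelsolin family, calcium-driven severing and capping proteins, 0 of 4 tested genes were called. Gsn, the most abundant, measured 1127 ± 59.2 FPKM in the knock-in and 1260 ± 69.6 FPKM in the wild type, and Flii 31.4 ± 3.09 FPKM in the knock-in and 33.3 ± 5.10 FPKM in the wild type (SD, n = 3 each). Of the cofilin kinases and phosphatases, 2 of 8 were tested and 0 called. Ssh1, a phosphatase that activates cofilin, measured 5.77 ± 1.1 FPKM in the knock-in and 7.90 ± 0.581 FPKM in the wild type, and the kinase gene Limk1 measured 4.41 ± 1.05 FPKM in the knock-in and 5.29 ± 1.24 FPKM in the wild type (SD, n = 3 each).

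Of 18 symbols listed for actin folding and maturation, 17 were present and 12 were tested. Of these 12, 8 had a positive and 4 a negative log2 fold change, with a median of 0.14 and 0 called. For 3 of them, Tcp1, Cct2 and Pfdn6, every knock-in value lay above every wild-type value, as for 14.9% of all tested genes. Pfdn5, a prefoldin subunit gene, measured 292 ± 44.8 FPKM in the knock-in and 255 ± 17.4 FPKM in the wild type, and Setd3, for the actin histidine methyltransferase, 66.5 ± 9.67 FPKM in the knock-in and 60.0 ± 3.22 FPKM in the wild type (SD, n = 3 each). Msrb1 and Msrb2, for enzymes that reduce oxidized methionine, were the tested genes of the 5 for actin oxidation and reduction. Msrb1 averaged 7.59 ± 2.22 FPKM in the knock-in and 6.23 ± 0.700 FPKM in the wild type, and Msrb2 7.09 ± 3.02 FPKM in the knock-in and 5.82 ± 1.62 FPKM in the wild type (SD, n = 3 each). Cap2, a relative of Cap1, measured 15.6 ± 3.92 FPKM in the knock-in and 13.7 ± 1.46 FPKM in the wild type (SD, n = 3 each). Muscle-type actins were near the floor: Actg2 measured 0, 0.653 and 0.0886 FPKM in the knock-in and 0.934, 1.33 and 3.02 FPKM in the wild type (limma adjusted p = 0.0972), and Acta2 stayed under 1 FPKM in every library.

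**Figure D4:**
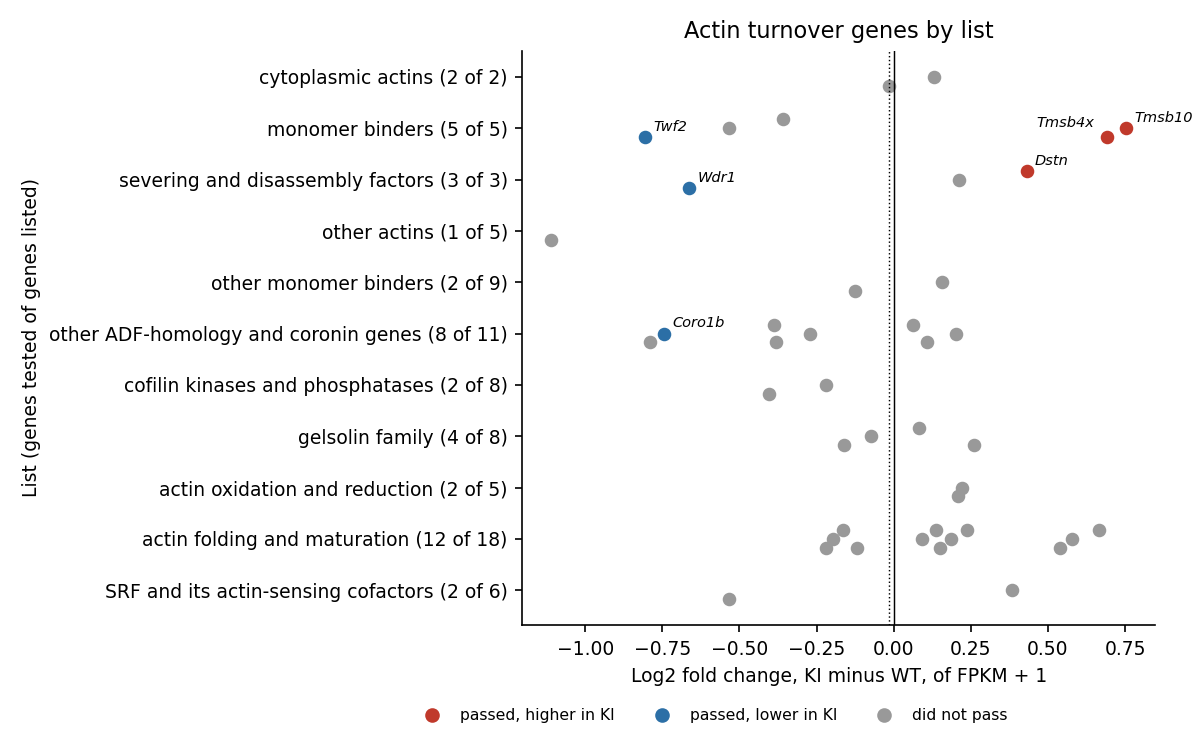
Log2 fold change (KI minus WT, FPKM + 1) of each tested gene in the member groups (top 3 rows) and the 8 related lists, with genes past the adjusted threshold coloured and named and the median of all tested genes as a dotted line. Of the 33 related genes only Coro1b (-0.74) passed, beside 5 of the 10 members. Most of the related genes were less abundant than any member, and abundant genes pass more often.

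The genes whose centred log2 profile over the 6 libraries lay nearest to that of Tmsb4x, by root mean square difference, were Rnasek (0.04), Ppia (0.05), Gng5 (0.05), Cox8a (0.05) and Trappc4 (0.05). These profiles share their libraries, so the likeness is a description. Ppia, for the prolyl isomerase cyclophilin A, measured 2220 ± 192 FPKM in the knock-in and 1419 ± 32.9 FPKM in the wild type (SD, n = 3 each). Gng5, a G protein subunit gene, measured 1878 ± 152 FPKM in the knock-in and 1161 ± 38.8 FPKM in the wild type (SD, n = 3 each).

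**Figure D5:**
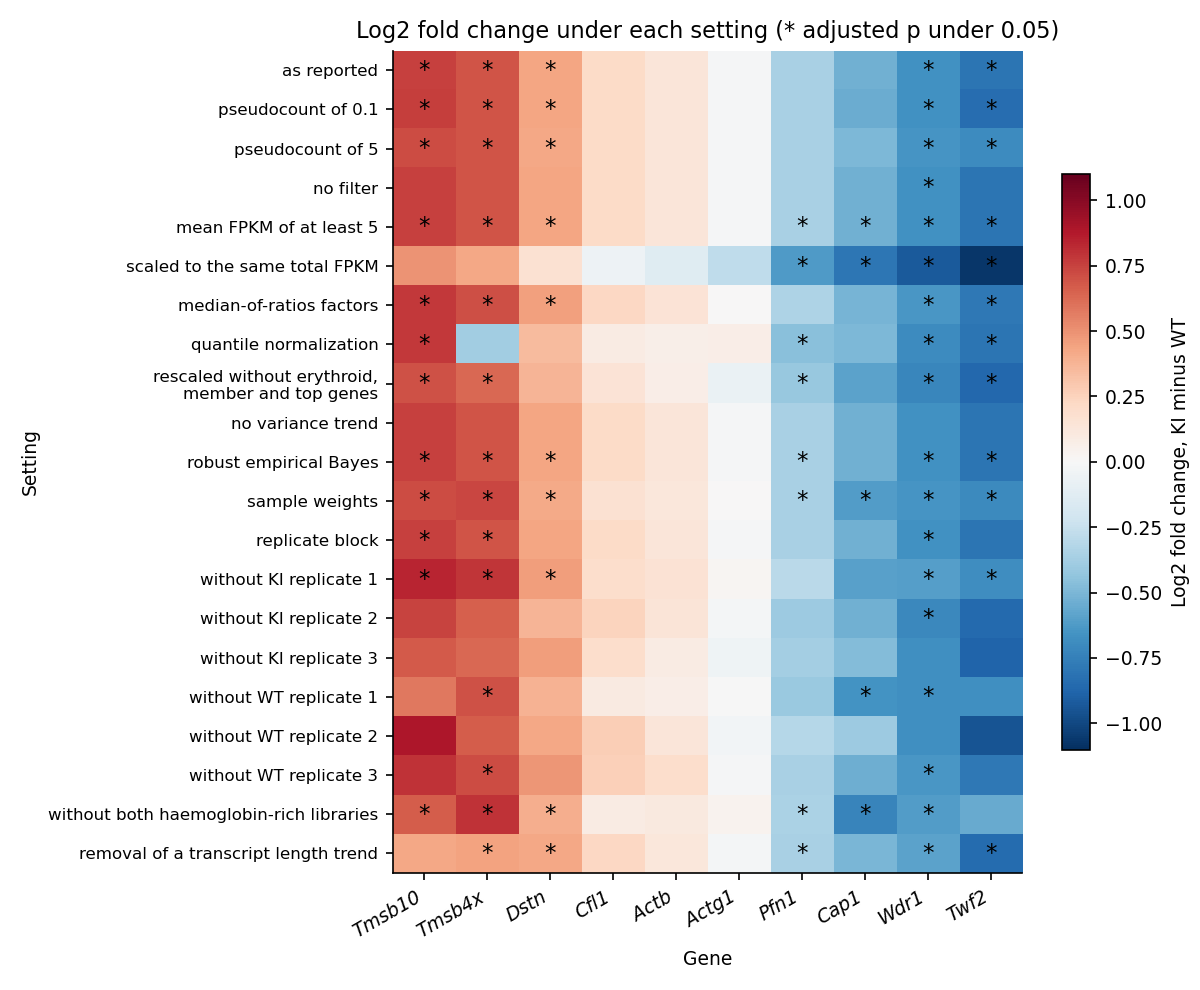
Log2 fold change of each gene (columns, ordered by the reported value) under each processing setting (rows), with an asterisk where the limma adjusted p was under 0.05. Wdr1 carries an asterisk in all but 3 settings, and Tmsb4x turns negative (-0.38) under quantile normalization.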

How the data were processed

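RNA was sequenced from 6 mouse platelet libraries, 3 knock-in (KI) and 3 wild type (WT), grouped and numbered by sample title. Per the labels' protocols, TRIzol and miRNeasy Micro columns were used for RNA, SMART-Seq HT for cDNA and Nextera XT for the libraries. The authors deposited FPKM per gene symbol, in 1 table per library. Build mm10, Cuffdiff 2.2.1, TopHat2 2.1.1, SAMtools 0.1.18 and Bowtie2 2.2.8 are named, per the submitters' processing notes; their settings and the gene annotation are not given here. In such tables a 0 can be a failed estimate. Absolute depth is unknown, and relative depth was estimated from the most frequent ratio of low FPKM values between wild-type library 1 and each library.

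Of 24346 genes, the 4859 with a mean of at least 1 FPKM entered limma 3.58.1 (R 4.3.3) as log2(FPKM + 1), with genotype as the sole factor, a prior variance that follows expression, and two-sided p-values adjusted by Benjamini-Hochberg. Fold changes are on that scale, which understates the change of low genes. Ratios and shares used exact permutation over samples. The members, lists and tests were chosen with earlier results of these data known. The named genes are the 10 members, related-list genes that passed, the 2 most abundant of each related list and the 5 genes with profiles nearest to the most abundant member. Coding sequences of GENCODE M21 were compared; protein sequences were not used here. The 20 other settings covered pseudocount, filter, scaling, variance model, weights, replicate block and left-out libraries, and the removal of a length trend, which was chosen after seeing the data.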

Additional observations from a re-analysis of the deposited data

How the results depend on the processing

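With no filter 107 genes passed (49 higher and 58 lower in the knock-in), with 0 members higher and 1 lower. At a mean FPKM of at least 5, 3 members were higher and 4 lower, with 1 related-list gene higher. Scaling to the same total gave 51 genes higher and 483 lower, 0 members higher and 4 lower, and 2 related-list genes lower. With a constant prior variance 0 genes passed the limma test (0 higher, 0 lower; 1197 at an unadjusted p of 0.05), and 0 members and 0 related-list genes. Sample weights gave 322 genes higher, 4 members lower and 1 related-list gene higher, and robust moderation 1 related-list gene higher. Quantile normalization left 1 member higher. Without the library richest in haemoglobin mRNA in each group 728 genes passed (362 higher and 366 lower), with 2 related-list genes higher. Leaving out 1 library at a time gave 0 (without knock-in library 3, limma, with 994 at an unadjusted p of 0.05) to 610 genes (without knock-in library 1), 0 to 307 higher and 0 to 303 lower. Those fits called 0 to 3 members higher and 0 to 2 lower, and 0 to 1 related-list gene higher and 0 to 1 lower.

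Wdr1, Twf2, Pfn1, Cap1, Tmsb10 and Dstn kept their direction under all 20 settings. Tmsb4x turned to -0.38 with quantile normalization, which also turned the log2 ratios of Actb over Actg1 (-0.0073) and Tmsb4x over Actb (-0.45) and moved that of Tmsb4x over Tmsb10 to -1.17. That last ratio ran from -0.238 to 0.110 with 1 library left out. Actb (-0.13) and Cfl1 (-0.0539) turned negative after scaling to the same total. Actg1 turned positive with median-of-ratios factors (0.0050), quantile normalization (0.0714), sample weights (0.0059) and both haemoglobin-rich libraries left out (0.0377), and ran from -0.0454 to 0.0242 with 1 left out. The cause was not tested.

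Deviations of same-numbered libraries correlated at 0.158, 0.0235 and 0.141, against -0.160 to 0.0674 for the other pairs, and not every library correlated best with its own number. The labels do not say whether a number marks a batch, so the numbers were not taken to pair the libraries. A replicate block gave 306 genes, 2 members higher (Tmsb4x, Tmsb10) and 1 lower (Wdr1), with adjusted p = 0.0541 for Twf2 and 0.0571 for Dstn by limma.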
